A study of Rattus norvegicus with 30 samples.

Results

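The long methylated regions of variable presence are stretches of the rat genome, 1500 bp or longer, where a peak of methylated DNA was called in some libraries and not in others. They were chosen by merging the peaks of all 30 libraries on chromosomes 1 to 20 wherever they overlapped by at least 1 bp, and keeping merged regions of that length with a peak in 6 to 29 libraries. The rule kept 3543 of 604866 merged regions, or 0.586%. Length and the number of libraries with a peak therefore chose the members, and both are given below as a description with no test.

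DNA methylation was measured by meDIP-seq in the prefrontal cortex (PFC) of Sprague-Dawley rats at postnatal day 22, with 10 libraries in each of 3 prenatal groups. Dams of the prenatal alcohol exposure (PAE) group ate a liquid diet with 36% of calories from ethanol (6.37% by volume) without restriction on gestation days 1 to 21. Control (CON) dams ate the pelleted control diet freely. Each pair-fed (PF) dam was limited to the intake of a PAE partner, on a liquid diet that held maltose-dextrin and no ethanol. Each of 15 dams gave 2 pups, 1 labelled female and 1 labelled male, so the 10 libraries of a group come from 5 litters and PF animals differ from CON animals in ration as well as diet form.

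DNA methylation in mammals sits mostly on cytosines followed by guanine, and in the brain it is laid down and remodelled while neurons mature. In meDIP-seq an antibody against methylated cytosine pulls down DNA fragments, and the sequenced fragments pile up into peaks over stretches rich in methylated sites. The height of a pile rises with both the number of methylated sites and the share of cells that carry them, and these cannot be told apart, nor can a change in the mixture of cell types in the tissue.

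The libraries held 11548314 to 16555049 filtered fragments. The height of a peak is given per 1000000 filtered fragments of its library, as the highest pileup in the region, and the covered length is the number of bp of a region under that library's peaks. Libraries with no peak, or with a lower one, were set to a common floor of 0.438 for tests, because the peaks hold no signal below the calling threshold. Absence of a peak is thus a height that was not called and not a measured absence of methylation. Peaks were called over the local background, so a library without a peak may also lie above the floor.

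Sex chromosome peaks went against the labelled sex in 18 of the 30 libraries. In 23 libraries chromosome X held 0.774 to 1.15% of peaks and chromosome Y had 38 to 87 peaks, and 13 of these were labelled female. Removing the 18 libraries leaves 3 CON, 3 PF and 6 PAE libraries, with PF28_M alone on lane 7. The 12 kept are 10 labelled male and 2 labelled female (E1_F and PF28_F), with no labelled female among CON. For each group contrast, the counts of members passing a threshold and the members smallest in p are given with and without the 18 libraries. Peak presence by group and the group contrasts at all other named members rest on all 30 libraries. The littermate and dam results were not computed without the 18 libraries. Whether the dam and group labels are affected as well was not tested, and all comparisons by group, dam and lane below rest on the labels as given. The labels also place the libraries on 5 sequencing lanes that hold the groups unevenly, with 3 CON, 0 PF and 2 PAE libraries on lane 4, 3 CON, 2 PF and 0 PAE libraries on lane 7, and 2 CON, 1 PF and 3 PAE libraries on lane 8.

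Variable presence was common among long regions. Of 4660 merged regions of 1500 bp or longer, 76.0% were members, 1101 had a peak in all 30 libraries and 16 had one in fewer than 6. Member length ran from 1500 to 3863 bp, and the median was 1659 bp. Most sat near the lower limit, with 2389 members (67.4%) of 1500 to 1749 bp and 760 (21.5%) of 1750 to 1999 bp, whereas 36 were 2500 to 2999 bp and 5 were longer. At the limit itself, the 19 members of exactly 1500 bp had a peak in 12 to 29 libraries and a median height of 0.922. The 18 regions of 1499 bp that fell just outside had one in 7 to 29 libraries and a median height of 0.876, so the values on both sides overlapped.

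The length of a member was rarely the length of a peak in any library. A library with a peak covered a median of 510.5 bp of a member, or 29.7% of its length, against 53.2% in long regions with a peak in all 30 libraries and 59.7% in the 216975 shorter regions with a peak in 6 to 29 libraries. The longest cover by any library had a median of 1168 bp and ran from 528 to 3562 bp. In 405 members (11.4%) at least 1 library covered 1500 bp or more by itself, and in 277 of these it was 1 library. In the other 3138 members no library reached 1500 bp, and the region was joined from shorter peaks of different libraries.

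The peaks within a member did not all stack at one place. In 395 members (11.1%) some position lay under a peak of every library that had one, compared with 68.5% of the long regions with a peak in all 30 libraries and 81.2% of the shorter variable regions. The best shared position of a member held a median of 83.3% of its libraries with a peak. In 3021 members (85.3%) at least 1 library had 2 or more separate peaks inside the region, against 5.59% of the shorter variable regions. No test was made of these shares because length chose the members.

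Presence leaned toward most libraries. The median member had a peak in 22 libraries, 1367 members (38.6%) had one in 25 to 29 and 869 (24.5%) in 20 to 24, whereas 173 (4.88%) had one in 6 to 9. Exactly 1 library lacked a peak at 389 members, and the missing library was most often C44_F (42 members), E3_M (35), E1_M (34) or E9_F (33). Height and cover were larger where more libraries had a peak, except in the members with the fewest. Members with a peak in 6 to 9 libraries had a median height of 0.756, those with one in 10 to 14 a median of 0.726 and those with one in 25 to 29 a median of 0.959, while the median covered length was 436, 424 and 627 bp, respectively.

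Members were low peaks. Their median height was 0.855, with 10th and 90th percentiles of 0.636 and 1.17, against 0.796 in the shorter variable regions and 1.36 in the long regions with a peak in all 30 libraries. Their median fold enrichment over the local background of the library was 4.14, against 4.28 and 5.52. The lowest called height of a member had a median of 0.524, just above the floor of 0.438. In 93 members (2.62%) every called peak was at least 2 times the floor, compared with 3.78% of the shorter variable regions and 40.8% of the long regions with a peak everywhere. These 93 had a peak in a median of 27 libraries, and 60 of them in 25 or more.

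At 7 members, which were singled out after their values were seen, every called peak was at least 3 times the floor. They include chr12:1935509-1937154 and chr6:110901767-110903278 (Rn6), each with a peak in 6 libraries. At the first, the heights were 1.54 to 1.65 in the 4 CON libraries with a peak, 1.75 in PF27_F and 1.57 in E2_F, and at the second they were 1.36 to 2.01 in 4 CON libraries, 1.35 in PF27_F and 1.84 in E2_F. All 6 libraries with a peak were on lanes 7 and 8 at each, and the other 24 had no peak. Because these members met the rule through libraries of those lanes, no lane test is given for them. The other members of the 7 had a peak in 22 to 29 libraries, at chr7:99520859-99522377, chr7:117238561-117241123, chr11:39087608-39090250, chr18:382766-384340 and chr6:2668984-2672704.

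Heights at most members formed a continuous range. The largest step between successive heights of the libraries with a peak had a median ratio of 1.21, and 10 members (0.282%) had a step of 2-fold or more, against 0.177% of the shorter variable regions. At 3 members, named because of this after their values were seen, the step was 3-fold or more.

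The first, chr6:2668984-2672704, is the second longest member at 3721 bp and had a peak in 29 libraries. Its heights fell into 3 levels that did not overlap. The lowest held 3 CON libraries (C41_F, C46_F and C46_M) at 1.56 to 2.01, the middle level 19 libraries (6 CON, 6 PF and 7 PAE) at 6.92 to 9.86, and the highest 7 libraries (C45_M, PF24_F, PF24_M, PF28_F, E2_M, E3_F and E6_F) at 14.2 to 18.4. PF22_F had no peak. Both pups of the dams C46 and PF24 sat on the same outer level, while C45_M, E2_M, E3_F, E6_F and PF28_F stood on the highest level and their littermates on the middle one. The region was also the one covered most widely, with 26 libraries covering 1500 bp or more, and its group medians were 7.44 in CON, 8.34 in PF and 8.43 in PAE libraries with a peak. The groups overlapped, and no contrast passed the test (PAE versus CON 0.80 on the log2 scale, standard error 0.482, adjusted p = 0.710).

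At the second, chr2:261363239-261365241, the called heights stood at 2 levels far apart. A peak of 9.55 to 12.7 was called in 10 libraries (C44_F, C45_F, C45_M, PF24_F, PF26_F, PF26_M, PF27_F, PF27_M, E1_F and E6_F), one of 0.613 to 1.00 in 3 libraries (C41_M, C44_M and E2_F), and none in 17. The step between the levels was 9.51-fold. High peaks occurred in 3 CON, 5 PF and 2 PAE libraries, in 7 labelled female and 3 labelled male, and on all 5 lanes, and the covered length at this level was 1036 to 1735 bp against 301 to 427 bp at the low one. Both littermates were high in 3 dams (C45, PF26 and PF27), and of the 15 dams 6 had no pup with a peak.

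The third, chr1:38023365-38025259, is also listed by the study as differing between groups, with no gene given. Its heights were 0.582 to 0.931 in CON (median 0.721, 10 libraries with a peak), 0.569 to 0.795 in PF (median 0.692, 10 libraries) and 0.619 to 5.28 in PAE libraries (8 libraries, with a median of 0.823 over all 10 with the floor). The high values came from 4 PAE libraries at 3.50 to 5.28 (E2_M, E3_F, E6_M and E9_F), from 4 dams and 3 lanes, while the other 4 PAE libraries with a peak lay within the range of the CON and PF libraries. Their littermates E2_F, E6_F and E9_M had heights of 0.817, 0.619 and 0.788, and E3_M had no peak. The 4 high libraries covered 1447 to 1830 bp and the others 250 to 1303 bp. The fitted log2 difference was 0.77 between PAE and CON (standard error 0.375, adjusted p = 0.677) and 0.99 between PAE and PF (standard error 0.376, adjusted p = 0.988), neither past the threshold.

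The longest members differed in how their length arose. At 3863 bp, chr10:70352168-70356030 had a peak in 29 libraries, yet no position was shared by more than 12 of them, and a library covered a median of 878 bp. Heights there were 0.776 to 1.72 (median 1.15) and the groups overlapped. At chr6:2668984-2672704 a single position was shared by 28 of 29 libraries and the median cover was 2647 bp. The next were chr11:30520360-30523660 (3301 bp, 28 libraries, median height 1.29), chr3:169532628-169535732 (3105 bp, 28 libraries, 0.699) and chr1:94651905-94654954 (3050 bp, 29 libraries, 1.52), at which 20 to 23 libraries shared a position. After chr6:2668984-2672704, the member that most libraries covered over 1500 bp or more was chr15:50054869-50057530, named after its values were seen, with 11 of its 28 libraries.

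The members with the highest median height over the libraries with a peak were chr2:261363239-261365241 (10.2) and chr6:2668984-2672704 (8.26). They were followed at a distance by chr19:55149032-55150798 (2.57), chr7:99520859-99522377 (2.43) and chr20:2980502-2982075 (2.41). At chr19:55149032-55150798 a peak was called in 7 libraries, at 0.932 in C44_M and at 2.16 to 3.31 in C41_F, C43_F, C45_F, C45_M, PF27_F and E2_F, all of them on lanes 7 and 8. At chr20:2980502-2982075 it was called in all libraries but E3_F, at 1.13 to 2.89. The lowest median heights were 0.437 at chr7:47669069-47671111 (9 libraries), 0.440 at chr10:24823016-24824587 (15 libraries) and 0.442 at chr1:5625068-5626571 (10 libraries). These lie at the floor, so groups could not be compared there with any precision.

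Libraries differed widely in how many members they held. In CON libraries 2060 to 3123 members had a peak (median 2509), in PF libraries 2229 to 3008 (median 2474) and in PAE libraries 1976 to 3037 (median 2306). The ranges overlapped almost fully. Without the 18 libraries that went against their labelled sex, the medians were 2477 in CON (n = 3), 2610 in PF (n = 3) and 2259.5 in PAE (n = 6), so CON and PF changed order. The length of members covered by peaks was 1010029 to 2473751 bp in CON, 1244571 to 2265806 bp in PF and 1002175 to 2430681 bp in PAE libraries.

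The count of members went with the lane and with the number of peaks called. On lane 4 it was 1976 to 2477 (median 2255) and on lane 8 it was 2162 to 3123 (median 3001.5), with median numbers of autosomal peaks of 132902 and 182836. Lane 7 had 2541 to 2828 members per library, lane 5 had 2229 to 2652 and lane 6 had 2077 to 2610. The highest counts on lane 8 belonged to C43_F, E2_F, PF27_F and C45_M, at 3123, 3037, 3008 and 2995, 1 or 2 from each group, while E2_M had 2162 on the same lane. These libraries together with C45_F and C41_F on lane 7 held the highest height of all libraries at 2320 members (65.5%), with 281 to 456 members each, against 18 to 104 for each of the other 24 libraries. Of the 61 members with a peak in 6 or 7 libraries, C43_F had a peak at 36, E2_F at 34 and PF27_F at 32. Whether the number of peaks called in a library accounts for its count of members was not tested.

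In the limma test of lane, 2 members passed an adjusted p of 0.05, where 0.0321% of the 352026 tested regions did. The count depended on single libraries, and leaving out 1 gave 0 to 135 members. There were 135 (3.81%) without E3_F, where 2.45% of all tested regions were called, and 105 (2.96%) without E2_M, where 1.79% were. At an unadjusted p under 0.05 there were 847 members (23.9%), where 13.6% of all tested regions passed. The share was 15.1% in the shorter variable regions and 25.4% in the long regions with a peak in all 30 libraries. The 12 libraries left on removing those against their labelled sex include 1 on lane 7 and 2 each on lanes 4 and 8, so lane can hardly be compared among them. In that fit 24 members (0.677%) were called, where 4.27% of all tested regions were, and 237 (6.69%) had an unadjusted p under 0.05, where 9.05% did. Without the libraries of lane 8, an alternative chosen after seeing the data, 0 members were called by limma and 393 (11.1%) had an unadjusted p under 0.05, where 7.57% of all tested regions did. With median ratio scaling or quantile normalization in place of filtered fragments 0 members were called. With these, 358 (10.1%) and 277 (7.82%) had an unadjusted p under 0.05, where 8.05% and 7.03% of all tested regions did.

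The 2 members called for lane were chr13:71337521-71339240 and chr3:3388593-3390323. At the first, median heights with the floor were 0.659, 0.637 and 0.725 on lanes 4, 5 and 6, and 1.14 and 1.90 on lanes 7 and 8 (adjusted p = 0.0296). All libraries of lanes 7 and 8 had a peak there, at 0.877 or higher, and the libraries of the other lanes lay at 0.977 or lower, so the lanes overlapped little. At the second, the medians on lanes 4 to 8 were 0.438, 1.34, 0.942, 1.76 and 2.04 (adjusted p = 0.0428), and 2 of 5 libraries of lane 4 had a peak against all libraries of lanes 5, 7 and 8. Without lane 8 the adjusted p was 0.474 and 0.483. It was 0.349 and 0.0896 with libraries lacking a peak at 0 and a pseudocount of 0.1. With peaks covering 50% of the region it was 0.368 and 0.565. Neither member was called without the 18 libraries against their labelled sex. The first lost its call in 6 of 10 alternatives and in 10 of the 30 fits that left out 1 library. For the second these were 7 and 19.

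The contrast of PAE with CON compares prenatal alcohol exposure with ad libitum controls. PAE dams also ate a liquid diet and, according to the study, less food, so alcohol is not separated from these. Fewer PAE libraries than CON libraries had a peak at 1859 members and more did at 982, with the same number at 702. These are 52.5% and 27.7% of members, against 46.3% and 30.3% of all tested regions and 49.3% and 32% of the shorter variable regions, so the lean toward CON was not particular to members. PAE libraries also had fewer autosomal peaks in all, with a median of 134362.5 against 144412.5 in CON and 139890.5 in PF libraries. The difference was 5 libraries or more toward CON at 85 members (2.40%, against 2.18% of the shorter variable regions) and toward PAE at 21 (0.593%, against 0.895%). Among all tested regions these shares were 1.39% and 0.568%. All 10 CON libraries had a peak at 648 members (18.3%, against 4.73% of the shorter variable regions) and all 10 PAE libraries at 408 (11.5%, against 3.52%). None of the CON libraries had one at 1 member (0.0282%, against 1.06%) and none of the PAE libraries at 9 (0.254%, against 1.77%). Among all tested regions, 6.48% had a peak in all 10 CON libraries and 5.67% in all 10 PAE libraries. None of the CON libraries had one at 6.43%, and none of the PAE libraries at 9.24%. The rule asks for a peak in 6 to 29 libraries, so it limits these shares. Members also had a peak in a median of 22 libraries against 12 in the shorter variable regions, so these shares do not compare like with like. The members' median log2 difference in height was −0.14, where the median of all tested regions was −0.05.

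One member, chr10:98550454-98553010, was called in this contrast by limma, where 0.000284% of all tested regions were. Its heights were 0.977 to 2.42 in CON (median 1.48, 10 libraries with a peak), 0.846 to 1.51 in PF (median 1.17, 9 libraries) and 0.930 to 1.84 in PAE libraries (median 1.10, 3 libraries). All CON libraries were at 0.977 or higher and 7 PAE libraries had no peak, but E2_F at 1.84 lay among the higher CON libraries, so the groups overlapped. The 3 PAE libraries with a peak (E2_F, E2_M and E3_F) were the 3 PAE libraries on lane 8. All libraries of lanes 7 and 8 had a peak at this region, and lane itself had an adjusted p of 0.0575. The log2 difference was −1.33 (standard error 0.194, adjusted p = 0.0366). It was −1.42 without the 18 libraries against their labelled sex (adjusted p = 0.721) and −1.55 without lane 8 (adjusted p = 0.0604). Where a peak had to cover 50% of the region the difference was −0.243 (unadjusted p = 0.401, adjusted p = 0.857). Littermates are separate libraries in this fit. With littermates averaged to 1 value per dam and no sex or lane term the adjusted p was 0.776, and without the lane term alone it was 0.464. It ranged from 0.0229 to 0.857 over the 12 alternatives and from 0.00312 (without PF24_F) to 0.421 (without C41_M) on leaving out 1 library. The call was lost in 23 of these 30 fits. The libraries with a peak covered 276 to 1571 bp of its 2557 bp, and 14 of the 22 shared a position.

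The members next in order of p were chr14:8952649-8954269 and chr8:34398944-34400853, neither of which passed. At the first, heights were 0.752 to 1.85 in the 10 CON libraries (median 1.11), 0.728 to 1.61 in 6 PF libraries (median 1.15) and 0.619 to 0.883 in 3 PAE libraries (median 0.877), and the other libraries had no peak. The fitted log2 difference of PAE from CON was −1.33 (standard error 0.253, adjusted p = 0.661). At the second, heights were 0.645 to 1.85 in the 10 CON libraries (median 0.988), 0.586 to 1.70 in 6 PF libraries (median 1.05) and 0.749 to 0.981 in 4 PAE libraries (median 0.910). The difference there was −1.09 (standard error 0.270, adjusted p = 0.661). The called PAE heights overlapped the CON range at the first, where E6_F at 0.619 lay below it, and lay within it at the second, and at both fewer PAE than CON libraries had a peak. The differences were −0.999 and −1.28 without the 18 libraries against their labelled sex. Where a peak had to cover 50% of the region, the difference at the first fell to −0.123 (unadjusted p = 0.596) and that at the second turned to 0.03.

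At an unadjusted p under 0.05, 347 members (9.79%) differed between PAE and CON, where 7.37% of all tested regions did, and 327 members (9.23%) were lower in PAE, where 6.03% were. The share with an unadjusted p under 0.05 was 7.64% in the shorter variable regions and 8.54% in the long regions with a peak in all 30 libraries. Direction depended on the scaling of the libraries. With filtered fragments 20 of the 347 members were higher in PAE, with median ratio scaling 59 of 254, and with quantile normalization 93 of 234. Among all tested regions at an unadjusted p under 0.05 these were 4723 of 25957, 7322 of 21620 and 10320 of 20079, so that with quantile normalization more regions were higher than lower in PAE. The members' median log2 difference moved to −0.05 with median ratio scaling and to −0.02 with quantile normalization. Without the 18 libraries against their labelled sex, limma called 0 members and 335 (9.46%) had an unadjusted p under 0.05, where 4.74% of all tested regions did, and 22 of these were higher in PAE. With the libraries of lane 8 left out, it called 0, and 226 (6.38%) passed the unadjusted threshold, where 4.56% of all tested regions did. With peaks covering 50% of the region, fewer members than tested regions passed it in proportion, at 191 members (5.39%) against 6.46%. With littermates averaged and no sex or lane term limma called 0, and 265 members (7.48%) passed the unadjusted threshold, where 6.03% of all tested regions did.

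The contrast of PAE with PF compares alcohol exposure with a food intake matched in amount. PF dams had a restricted ration while PAE dams ate freely, so feeding pattern differs as well. This contrast shares the PAE libraries with the contrast above. Limma called 0 members, where 0.0% of all tested regions were called, and 166 members (4.69%) had an unadjusted p under 0.05, where 4.46% did. Of these, 137 (3.87%) were lower in PAE, where 2.95% of all tested regions were. The members' median log2 difference was −0.06, where the median of all tested regions was −0.02. Fewer PAE than PF libraries had a peak at 1733 members (48.9%, against 41.8% of all tested regions and 45.8% of the shorter variable regions) and more at 1072 (30.3%, against 32.8% and 34%). With quantile normalization 68 of 166 members were higher in PAE, where 9245 of 16265 tested regions were, against 29 of 166 members and 5298 of 15684 tested regions with filtered fragments. Without the libraries of lane 8, chosen after seeing the data, 83 of 181 members and 7963 of 14662 tested regions were higher in PAE. Without the 18 libraries against their labelled sex, 144 members (4.06%) passed the unadjusted threshold, where 4.13% of all tested regions did, and limma called 0 members, where 0.0418% of all tested regions were called.

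The members with the smallest p between PAE and PF were chr10:98550454-98553010, chr16:79679420-79681362 and chr10:7694243-7695839. At chr16:79679420-79681362 heights were 0.646 to 1.69 in 8 CON libraries (median 1.04), 0.732 to 1.57 in the 10 PF libraries (median 1.02) and 0.572 to 1.02 in 5 PAE libraries (median 0.730). At chr10:7694243-7695839 they were 0.788 to 0.803 in 4 CON libraries, 0.655 to 1.11 in 9 PF libraries (median 0.846) and 0.572 to 0.860 in 3 PAE libraries. The PF and PAE ranges overlapped at each. The fitted log2 differences of PAE from PF were −0.85 (standard error 0.194), −1.01 (0.232) and −0.73 (0.184), each with an adjusted p of 0.988. They were −0.98, −1.56 and −0.28 without the 18 libraries against their labelled sex, and with peaks covering 50% of the region −0.06, −0.18 and −0.21.

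The contrast of PF with CON addresses pair-feeding itself. It shares its libraries with the contrasts above. Limma called 0 members, where 0.0% of all tested regions were called, and 192 members (5.42%) had an unadjusted p under 0.05, where 6.46% did. Of these, 163 (4.60%) were lower in PF, where 4.39% of all tested regions were. The members' median log2 difference was −0.08, where the median of all tested regions was −0.03. Fewer PF than CON libraries had a peak at 1450 members (40.9%, against 41.7% of all tested regions and 43.1% of the shorter variable regions). More did at 1233 (34.8%, against 34.6% and 37.5%). With quantile normalization 66 of 161 members were higher in PF, where 7998 of 17470 tested regions were, against 29 of 192 members and 7263 of 22734 tested regions with filtered fragments. Without the 18 libraries against their labelled sex, limma called 0 members and 203 (5.73%) passed the unadjusted threshold, where 3.35% of all tested regions did.

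The members with the smallest p between PF and CON were chr2:142845689-142847207, chr1:196702742-196704540 and chr18:60747779-60749366. At the first, heights were 0.788 to 1.69 in the 10 CON libraries (median 1.12), 0.690 to 1.13 in 7 PF libraries (median 0.947) and 0.716 to 1.22 in the 10 PAE libraries (median 0.918). At the second, they were 0.686 to 1.28 in 9 CON libraries (median 0.866), 0.557 to 0.731 in 6 PF libraries (median 0.650) and 0.644 to 1.14 in 5 PAE libraries (median 0.749). At the third, they were 0.573 to 1.12 in the 10 CON libraries (median 0.752), 0.583 to 0.778 in 5 PF libraries (median 0.621) and 0.475 to 0.830 in 6 PAE libraries (median 0.752). PF and CON libraries overlapped at all 3 members. The log2 differences of PF from CON were −0.78 (standard error 0.195), −0.73 (0.189) and −0.70 (0.192), each with an adjusted p of 0.773. They became −0.02, −0.29 and −0.51 without the 18 libraries against their labelled sex, and with peaks covering 50% of the region −0.40, −0.14 and 0.

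Littermates share a dam and a uterine environment, and the rule did not use the dam. The presence calls of littermates were the same at 61.1 to 77.4% of members (median 65.9%, 15 pairs), highest for the pups of C45 and lowest for those of E3. Pairs of the same group from other dams had a median of 66.2% (120 pairs) and pairs from different groups 65.7% (300 pairs). For 1 of the 30 libraries the most similar library was its littermate. Pairs from other dams and other groups spanned a range at least as wide as that of littermates, 58.1 to 82.6% and 56.8 to 83.9%, given as a description with no test.

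In the limma test of dams within groups, 0 members were called, where 0.0% of all tested regions were, and 108 members (3.05%) had an unadjusted p under 0.05, where 4.95% did. With peaks covering 50% of the region 23 members (0.649%) were called for dam, where 0.343% of all tested regions were. The smallest p belonged to chr2:261363239-261365241, the member with the levels described above, at 0.000338 (adjusted p = 0.334). Both pups had a peak there in 4 dams, 1 pup in 5 dams and neither in 6. With each library's own floor in place of the common floor its adjusted p was 0.00274, and it ranged from 0.00274 to 0.815 over all alternatives. The next were chr12:46335376-46337047 (24 libraries, heights 0.801 to 2.45, adjusted p = 0.421) and chr8:64798847-64800831 (25 libraries, heights 0.664 to 2.01, adjusted p = 0.517). At the first of these, both pups had a peak in 11 dams, 1 pup in 2 dams and neither in 2, and at the second in 12, 1 and 2 dams.

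Members lay on all 20 autosomes. As a share of tested regions they were most frequent on chromosomes 12 (1.42%), 20 (1.26%), 19 (1.18%) and 10 (1.15%) and least on chromosomes 11 (0.799%), 4 (0.873%) and 2 (0.876%). Within 5000000 bp of the first or last peak of a chromosome lay 7.17% of members, 7.26% of all tested regions and 12.3% of the long regions with a peak in all 30 libraries. Members therefore resembled tested regions in this respect, as a description, while the long regions with a peak everywhere lay there more often.

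With a gap of at most 100000 bp, 1181 members (33.3%) joined into chains of 2 or more, mostly pairs, with 394 chains of 2 and 90 of 3. The share expected from random placement, or for other regions, was not computed, so this is a description only. The chains with most members had 7 each, at chr9:37914920-38060401, spanning 145482 bp, and chr16:79555384-79761219, spanning 205836 bp. Of the chains with 5 members, the first by position was chr5:149160341-149353110. The spans on chromosomes 9, 16 and 5 held 39, 47 and 37 tested regions, respectively. In the chain on chromosome 9 each member had a peak in 21 to 29 libraries at median heights of 0.935 to 1.22, and in the chain on chromosome 5 in 20 to 29 libraries at 0.894 to 1.42. The chain on chromosome 16 was more uneven, with 8 to 29 libraries and median heights of 0.514 to 1.39. Its least frequent member, chr16:79658982-79660497, had a peak in 8 libraries, and its most frequent, chr16:79601675-79603255, in 29.

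Neighbouring members had the same calls about as often as distant ones, given as a description with no test. Successive members with a gap of at most 100000 bp had the same call in a median of 60% of the libraries (669 pairs), and so did successive members more than 1000000 bp apart (754 pairs). The median difference in the number of libraries with a peak was 6 for each. Pairs within the chain on chromosome 9 had the same call in 66.7 to 100% of libraries, and pairs within the chain on chromosome 16 in 26.7 to 90%. Such shares rise where both members have a peak in nearly all libraries, as on chromosome 9.

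Of 1462 regions the study listed as differentially methylated, 6 had the same start and end as a member, or 0.169% of members, where 0.402% of all tested regions and 0.363% of the shorter variable regions did. The study drew its list from these same libraries, so the values here are not independent evidence for it. Its list pools sex-concordant, female-specific and male-specific regions, whereas the contrasts here use libraries of both labelled sexes. Beside chr1:38023365-38025259 and the long chr11:30520360-30523660, they are chr2:32778133-32779706, chr8:119193607-119195248, chr12:2549247-2550810 and chr13:89803571-89805351. The last pair carries gene names in the study's list. The region of Map2k7, a kinase that activates the JNK pathway, was annotated to an exon and intron, and that of Usf1, a transcription factor that binds E-box sequences, to an exon, an intron and the 3′ untranslated region.

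At the Map2k7 region, chr12:2549247-2550810, heights were 0.601 to 1.65 in CON (median 1.10, 10 libraries with a peak), 0.510 to 1.51 in PF (median 0.836, 10 libraries) and 0.645 to 1.498 in PAE libraries (median 0.808, 9 libraries). At the Usf1 region, chr13:89803571-89805351, they were 0.932 to 1.97 in CON (median 1.26, 10 libraries), 0.659 to 1.75 in PF (median 1.06, 9 libraries) and 0.550 to 1.31 in PAE libraries (median 0.954, 10 libraries). At both genes CON libraries were highest by median and the groups overlapped. The log2 differences from CON were −0.53 for PAE and −0.53 for PF at Map2k7, and −0.63 and −0.61 at Usf1, with adjusted p-values of 0.663 and 0.773, and 0.661 and 0.773, respectively.

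At chr2:32778133-32779706 a peak was called in 7 CON libraries at 0.646 to 1.77, in 4 PF libraries at 0.544 to 0.690 and in 1 PAE library, E2_F, at 1.84. At chr8:119193607-119195248 it was called in 8 CON libraries at 0.517 to 1.93, in 5 PF libraries at 0.366 to 1.10 and in 4 PAE libraries at 0.572 to 0.901. CON libraries had a peak most often at these, whereas chr11:30520360-30523660 had one in 8 CON, 10 PF and 10 PAE libraries. The median there was 1.29 in CON, 0.827 in PF and 1.53 in PAE libraries with a peak. The log2 differences of PAE from CON were −0.71, −0.69 and 0.47 (adjusted p = 0.661, 0.661 and 0.731).

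Some members lay between listed regions of the same gene. At Tenm2, which encodes a teneurin, a cell adhesion protein of synapses, 2 members lay between the first and last of 3 listed regions. The first, chr10:21243573-21245442, had heights of 0.677 to 1.44 in 9 CON libraries (median 0.860), 0.604 to 0.950 in 7 PF libraries (median 0.795) and 0.475 to 1.09 in 5 PAE libraries (median 0.573). The second, chr10:21420388-21423172, is 2785 bp long, with heights of 0.716 to 1.63 in the 10 CON libraries (median 1.17), 0.655 to 1.68 in the 10 PF libraries (median 0.850) and 0.475 to 1.42 in 8 PAE libraries (median 0.833). Medians were highest in CON and lowest in PAE at both, with overlapping ranges. The log2 differences of PAE from CON were −0.72 (standard error 0.202) and −0.53 (standard error 0.218), each with an adjusted p of 0.661.

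Single members lay within the listed spans of the adhesion genes Pcdh9, a protocadherin, and Cdh13, a cadherin, and of Ddhd1, a phospholipase, and Ctdspl, a phosphatase. At Pcdh9, chr15:77059444-77061224 had a peak in 10 CON, 9 PF and 5 PAE libraries, with medians of 0.621, 0.604 and 0.517. At Cdh13, chr19:51421480-51423365 had one in 6 CON, 5 PF and 1 PAE libraries, with medians of 0.842, 0.604 and 0.606. At both a peak was least frequent in PAE libraries. At Ddhd1, chr15:19978518-19980202 had one in 10 CON, 9 PF and 10 PAE libraries, and at Ctdspl, chr8:127528587-127530393 in 8 CON, 8 PF and 10 PAE libraries. The log2 differences of PAE from CON were −0.39, −0.55, −0.25 and 0.30 in the order Pcdh9, Cdh13, Ddhd1 and Ctdspl, and none passed the threshold (adjusted p = 0.663, 0.661, 0.729 and 0.782).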

How the data were processed

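Peaks of 30 meDIP-seq libraries were used as deposited. Alignment to Rn6 used BWA and filtering used samtools, and the authors called peaks per library with MACS2 (2.1.4 per the file headers), without a control library, at a q-value of 0.05. The deposited signal, a pileup at the summit, carries no scaling for depth. A stricter threshold of 0.01 was set from the deposited −log10 q-value. The deposited fold enrichment is the ratio of pileup to the local background of the same library. Filtered fragments per library come from the file headers.

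Merged regions with a peak in at least 3 libraries (352026) were fitted on log2 heights with limma 3.58.1 in R 4.3.3, with group, labelled sex and lane as terms, and p-values were adjusted by Benjamini-Hochberg over all of them. Littermates entered as separate libraries. Dams were tested within groups over 12 contrasts and lanes over 4 terms. Python 3.11.15, numpy 2.4.6 and pandas 2.3.3 did the rest. Fit and merging were tested on simulated data.

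The members and lists were chosen with earlier results of these data known. Named regions are the 5 longest, those called or smallest in p per group contrast (3), for dam (3) and for lane, the 5 highest and 3 lowest in median height, those at a listed region, those between listed regions of a gene, the 3 largest chains and those at the length limit. Other names were chosen after values were seen. Alternatives changed the model terms, floor, scaling, peak threshold, coverage, filter, libraries and definitions. No Rn6 sequence or annotation was at hand.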

Additional observations from a re-analysis of the deposited data

Results flagged for a closer look

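Of 191 groups of libraries looked at, each of 10 libraries, 43 had a highest or lowest library set apart from the others of its group by a gap that was large against the group's range. Chance sets apart about 1 in 20 groups. The groups are not independent, because the same few libraries recur and libraries without a peak sit together at the floor. Causes were not tested.

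In 17 of the 43 the library was E2_F and in 12 it was PF27_F, both on lane 8. Across the members, PF27_F was highest in PF for bp covered (2265806), mean bp per member with a peak (753), median height (1.11) and members covered over 1500 bp or more (92). In PAE, E2_F was highest for the same measures, at 2430681 bp, 800.4 bp, 1.09 and 109.

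At single members E2_F was the highest PAE library, with a height of 1.84 at chr2:32778133-32779706, chr5:149351372-149353110, chr6:110901767-110903278 and chr10:98550454-98553010. It reached 1.63 at chr3:169532628-169535732 and chr9:37968750-37970793, 2.45 at chr9:38043067-38044883, 2.11 at chr16:79718537-79720244 and 2.25 at chr13:71337521-71339240. Its heights were 1.09 at chr10:21243573-21245442, 1.57 at chr12:1935509-1937154, 2.66 at chr19:55149032-55150798 and 0.681 at chr7:47669069-47671111. PF27_F was the highest PF library at chr5:149160341-149162164 (2.31), chr6:110901767-110903278 (1.35), chr12:1935509-1937154 (1.75), chr13:71337521-71339240 (2.07), chr15:19978518-19980202 (1.43), chr16:79759715-79761219 (2.07), chr19:51421480-51423365 (1.43) and chr19:55149032-55150798 (2.39).

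Among CON libraries, C45_M was highest at chr1:94651905-94654954 (3.69), chr6:2668984-2672704 (17.7) and chr10:24823016-24824587 (0.722). The highest was C41_M at chr7:47669069-47671111 (0.884) and C44_M at chr16:79658982-79660497 (0.573). Other PF libraries that stood highest were PF26_M at chr1:5625068-5626571 (1.07), PF26_F at chr8:119193607-119195248 (1.10) and PF22_M at chr10:24823016-24824587 (0.439), and PF28_F, without a peak, stood lowest at chr7:99520859-99522377 at the floor of 0.438. Other PAE libraries that stood highest were E3_F at chr1:196702742-196704540 (1.14), E6_M at chr8:119193607-119195248 (0.901) and chr16:79658982-79660497 (0.515), E9_M at chr10:7694243-7695839 (0.860) and E9_F at chr19:51421480-51423365 (0.606).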

How the results depend on the processing

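The counts of members called between PAE and PF (0) and between PF and CON (0) kept their value under all 12 alternatives and in all 30 fits that each left out 1 library, and their counts at an unadjusted p under 0.05 (166 and 192) stayed within 1.5 times. In PAE versus CON the 1 member called was also called with each library's own floor, without the labelled sex term and with median ratio scaling. The count was 0 without the lane term, without the 18 libraries against their labelled sex, with littermates averaged and no sex or lane term, without lane 8 (chosen after seeing the data), with libraries lacking a peak at 0 and a pseudocount of 0.1, with quantile normalization, with peaks at a q under 0.01, with peaks covering 50% of the region and with regions called in at least 1 library. Leaving out 1 library gave 0 to 1, with 1 kept without C44_F, C44_M, E2_F, PF22_F, PF24_F, PF26_F or PF27_F and 0 without any of the other 23. The count at an unadjusted p under 0.05 (347) moved to 226 (6.38% of members, 4.56% of tested regions) without lane 8 and 191 (5.39% and 6.46%) with 50% coverage, so that with 50% coverage members no longer exceeded tested regions. Its range on leaving out 1 library was 245 to 446. At chr8:34398944-34400853 the difference reversed to 0.0337 on the log2 scale with 50% coverage, and at chr10:98550454-98553010 and chr14:8952649-8954269 it shrank to −0.243 and −0.123. The difference of PF from CON at chr2:142845689-142847207 shrank from −0.777 to −0.0223 without the 18 libraries.

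For dams, the 0 members called became 1 with each library's own floor (51 tested regions in all) and 23 with 50% coverage (1208 in all), and the 108 at an unadjusted p under 0.05 became 190 (5.36% of members, 5.85% of tested regions) without the lane term, 185 (5.22% and 4.13%) with the pseudocount, 205 (5.79% and 5.77%) with 50% coverage and 200 (5.64% and 4.01%) with regions called in at least 1 library. For lane, the 2 members called became 17 without the labelled sex term (1041 tested regions in all), 24 with each library's own floor (1187), 13 at a q under 0.01 (613), 6 with 50% coverage (268) and 24 without the 18 libraries (15018). The last is a smaller share of members (0.677%) than of tested regions (4.27%), with 1 library left on lane 7 and 2 each on lanes 4 and 8. The count was 0 without lane 8, with median ratio scaling or with quantile normalization. The 2 members named for lane were not among those called with 50% coverage or without the 18 libraries. The 847 at an unadjusted p under 0.05 became 237 (6.69% of members, 9.05% of tested regions) without the 18 libraries, 393 (11.1% and 7.57%) without lane 8, 519 (14.6% and 10.5%) with the pseudocount, 358 (10.1% and 8.05%) with median ratio scaling, 277 (7.82% and 7.03%) with quantile normalization and 511 (14.4% and 11.9%) with 50% coverage. Leaving out 1 library gave 0 to 135 members called for lane, the most without E3_F (135, and 8615 tested regions in all), E2_M (105 and 6297), C44_M (11), PF28_M (5), C41_F (4) and C45_F (4). It was 0 without C43_F, C43_M, C44_F, C45_M, C46_F, E2_F, E6_F, PF24_F or PF27_F, 1 without C46_M, E1_F, E3_M, E9_F, E9_M, PF22_F, PF22_M, PF26_F, PF26_M, PF27_M or PF28_F, and 2 or 3 without the remaining 4.

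The number of members was 27424 at 1000 bp or longer, 394 at 2000 bp or longer and 405 where 1 library covered 1500 bp by itself. Members whose called heights were all at least 2 times the floor (93) numbered 691 at 1.5 times, 7 at 3 times and 163 with each library's own floor. The difference between littermates and other pairs of a group was −0.268 percentage points in the share of same calls and −0.0303 without members on chromosomes 18 and 20. With peaks at a q under 0.01 this difference of medians changed sign to 0.635. The ranges there overlapped, at 58.0 to 74.8% for littermates and 54.3 to 80.0% for other pairs of a group. For 0 of the 30 libraries the most similar library was then its littermate. On other measures the difference was −0.894 percentage points for the Jaccard index and −0.00764 for Pearson r. Apart from settings that change what counts as a member or use fewer libraries, the cause of these shifts was not tested. No paired analysis was possible because the labels give dams within groups, and no replicate number is shared between groups. Peaks hold no signal under the calling threshold, so the height of a library without a peak is not known, and heights near the floor carry little information on group differences.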
